A study of Mus musculus with 6 samples.

Results

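The atrial chamber genes described here are 6 genes, *Sln*, *Myl7*, *Myl4*, *Mybphl*, *Nppa* and *Bmp10*, of the 24346 genes measured in mouse heart RNA. They were selected on their measured values across the same 3 groups, as genes of the heart's atria that vary between libraries, so their levels and differences are given as a description and carry no test. Hearts came from C57BL/6J male mice in 3 groups of 2 libraries, 6 in all. Mice of the C group ate chow. Those of the N group received the NASH diet, and those of the NP group received it together with pemafibrate, which acts as a selective modulator of PPARα, at 0.1 mg/kg. The sample labels state 3 weeks of feeding, while the study's methods state a longer time. The labels name heart as the tissue, although their RNA protocol speaks of liver, and they do not say which parts of the heart were taken or how many mice stand behind a library. *P* values therefore measure only the spread between these libraries.

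The adult heart holds atrial and ventricular muscle cells, which build their contractile filaments partly from different genes. Atrial cells use the light chains encoded by *Myl7* and *Myl4* on their myosin, where ventricular cells use *Myl2* and *Myl3*. Atrial cells also store and release the hormone encoded by *Nppa*, and sarcolipin (*Sln*) restrains their calcium pump in the sarcoplasmic reticulum, a role that phospholamban (*Pln*) has mainly in the ventricle. Values are FPKM, a level per gene corrected for transcript length and for sequencing depth, so that levels of different genes can be set side by side.

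Heart muscle was the main tissue in every library. *Myh6*, the main myosin heavy chain of the adult mouse heart, had between 3841 and 6856 FPKM, and *Actc1*, cardiac actin, between 9404 and 11324 FPKM. Estimated depths were 26200000 and 21600000 reads for C, 8780000 and 8700000 for N and 8220000 and 8490000 for NP. The C libraries were thus the deepest, and depth and diet cannot be told apart in comparisons with the C group. A low level in the C libraries was accordingly measured with more reads than the same level would be in the N or NP libraries.

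The atrial regulatory light chain gene *Myl7* (chromosome 11 of mm10, 5896637 to 5898782, minus strand, RefSeq) had 1.51 and 6.70 FPKM in the C libraries, 857 and 1193 FPKM in the N libraries, and 781 and 1319 FPKM in the NP libraries. The groups on the NASH diet lay far above the C group and overlapped each other. The C libraries reached 0.147% and 0.654% of the mean of the N group. *Myl4*, the atrial essential light chain (chromosome 11, 104546017 to 104587215), had 2.14 and 6.71 FPKM in the C libraries, 547 and 815 FPKM in the N libraries, and 554 and 1029 FPKM in the NP libraries. For both light chains, the second C library lay above the first, by 4.45-fold for *Myl7* and by 3.13-fold for *Myl4*, and both C libraries remained under 1% of the N mean. In these bulk samples, fewer atrial cells and less of these RNAs per cell cannot be told apart.

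*Sln* (chromosome 9, 53850251 to 53853849) was listed at 0 in one C library and had 0.450 FPKM in the other, which corresponds to about 11 reads. It had 250.3 and 462 FPKM in the N libraries and 287 and 518 FPKM in the NP libraries. *Mybphl*, which encodes a myosin-binding protein of atrial muscle and the conduction system (chromosome 3, 108364911 to 108380057), had 0.142 and 0.388 FPKM in the C libraries, 54.8 and 69.7 FPKM in the N libraries, and 52.4 and 87.9 FPKM in the NP libraries. The 2 genes thus moved from the edge of detection in the C group to levels of well-expressed genes in the other groups. *Mybphl* rested on about 4 and 9 reads in the C libraries and on about 464 reads or more in each of the others.

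The secreted products are encoded by *Nppa*, which gives atrial natriuretic peptide, a hormone that promotes sodium excretion and lowers blood pressure, and *Bmp10*, a ligand of the TGF-β family that the right atrium releases into the blood. *Nppa* (chromosome 4, 148000722 to 148002074) had 303 and 158 FPKM in the C libraries, 1992 and 2647 FPKM in the N libraries, and 2082 and 3259 FPKM in the NP libraries. The C libraries held 13.1% and 6.80% of the N mean, a larger remainder than for the other 5 genes. *Bmp10* (chromosome 6, 87428994 to 87434512) was listed at 0 in one C library and had 0.0830 FPKM, or about 8 reads, in the other. It had 18.5 and 59.7 FPKM in the N libraries and 44.0 and 66.9 FPKM in the NP libraries, so that the N libraries differed by 3.22-fold, the widest gap between N libraries among the 6 genes.

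**Figure D1:**
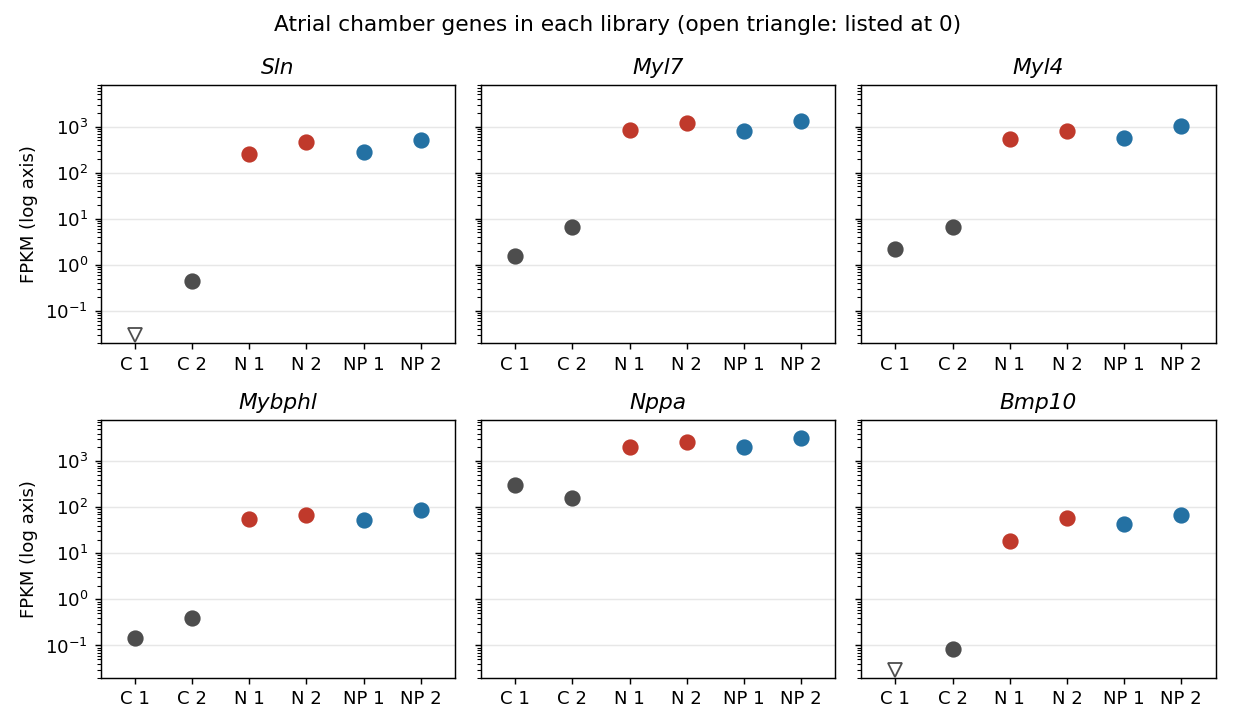
FPKM of the 6 atrial chamber genes (one panel each, log axis) in the 2 C, 2 N and 2 NP libraries, where each point is a library and an open triangle is a gene listed at 0, drawn at the bottom of the panel. Every N and NP library lies above both C libraries in every panel, and *Nppa* is the only gene with over 100 FPKM in the C libraries.

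On the log2(FPKM + 1) scale, which understates the change of low genes, the difference between the N and C groups was 8.15 for *Sln* (standard error 0.40), 7.85 for *Myl7* (0.55), 7.09 for *Myl4* (0.50), 5.64 for *Mybphl* (0.27), 5.05 for *Bmp10* (0.52) and 3.39 for *Nppa* (0.37). *Sln*, *Myl7* and *Myl4* had the 3 highest differences of the 12923 genes whose mean FPKM reached 0.5, and *Mybphl*, *Bmp10* and *Nppa* ranked 9, 14 and 30. The median difference of the 6 genes was 6.36, against -0.031 over all genes tested. All 6 passed the filter on the mean, which *Sln*, *Mybphl* and *Bmp10* did only through the N and NP libraries. In limma's test, with adjusted *P* under 0.05, 191 genes were higher in the N group (1.48% of the genes tested) and 9 were lower (0.0696%), and the 191 hold all 6 atrial chamber genes. The 6 also had both N libraries above both C libraries, as did 22.5% of all genes tested. Since these genes were chosen on this contrast, nothing is read from their counts. At an unadjusted *P* under 0.05 in limma's test 1065 of all genes tested were higher and 873 lower in the N group. With the libraries scaled to the same total these were 1909 and 245. The shares of all genes at that threshold, set beside the gene lists below, thus depend on the scaling. The number of genes called depended on single libraries, with 49 genes called without the second C library, 82 without the second N library, 125 without the first N library and 183 without the first C library. In the last case the balance of directions turned, with 88 genes higher and 95 lower in the N group. Those called held 4 of the 6 atrial chamber genes without the second C library and 5 without the first C library or either N library.

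The NP and C groups, which share the C libraries with the former comparison, differed by 8.33 for *Sln*, 7.85 for *Myl7*, 7.26 for *Myl4*, 5.77 for *Mybphl*, 5.73 for *Bmp10* and 3.57 for *Nppa*. The median of the 6 was 6.52, against -0.013 over all genes tested. In limma's test 5 genes were higher in the NP group (0.0387% of the genes tested) and 0 were lower (0.0%), while an unadjusted *P* under 0.05 was reached by 500 higher and 540 lower genes. With the libraries scaled to the same median, 5 were higher and 1 was lower. Scaled to the same total, 10 were higher and 0 lower, with 1116 higher and 183 lower at an unadjusted *P* under 0.05 in limma's test, so that the latter split depends on the scaling. The 5 genes were *Sln*, *Mybphl*, *Myl4*, *Myl7* and *Mlana*, so that 4 of the 6 atrial chamber genes were among them. As above, nothing is read from this count, since the genes were chosen on these values. With no filter on low values limma called 0 genes, while an unadjusted *P* under 0.05 was reached by 688 higher and 665 lower ones. With 1 library left out, the genes called held 5 of the 6 without the first C library, 4 without the second C library, 3 without either N library and 2 without either NP library. Both NP libraries lay above both C libraries for all 6 genes, as for 19.5% of all genes tested. Without the first C library 101 genes passed, of which 10 were higher and 91 lower in the NP group, so that here too the balance turned. Without the second C library 12 passed (5 higher and 7 lower), and without the first NP library 14 (12 higher and 2 lower).

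Between the NP and N groups, which differ by pemafibrate, the differences of the 6 genes were small beside the spread between libraries. They were 0.0052 for *Myl7*, 0.13 for *Mybphl*, 0.18 for *Sln*, *Myl4* and *Nppa*, and 0.68 for *Bmp10*, with a median of 0.18 against 0.025 over all genes tested. Each standard error, from 0.27 to 0.55, was above its difference except for *Bmp10*, whose standard error was 0.52. In limma's test 0 genes were higher in the NP group (0.0%) and 179 were lower (1.39% of the genes tested), and 0 of the 6 genes were among the latter. The unadjusted *P* was under 0.05 for 285 genes that were higher (2.21%) and 754 that were lower (5.83%), and for 0 of the 6 genes. Both NP libraries lay above both N libraries for 0 of the 6 genes, against 15.2% of all genes tested. As above, nothing is read from these counts, since the 6 genes were chosen on values that include these groups. The number of genes lower in the NP group fell whichever library was left out, and was 78 with only the 2 groups compared.

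The 6 genes kept the same order of levels in each N and NP library, which was *Nppa*, *Myl7*, *Myl4*, *Sln*, *Mybphl* and *Bmp10* from high to low. Across libraries of one group, neighbours in that order overlapped for *Mybphl* and *Bmp10* in the N group, and for *Myl7* and *Myl4* and for *Mybphl* and *Bmp10* in the NP group. In the N and NP libraries *Nppa* ranked between 18 and 28 among all 24346 genes by FPKM, and *Myl7* between 60 and 99. In the C libraries *Nppa* ranked 308 and 521, while *Myl7* ranked 10965 and 7104. Together the 6 genes made up 0.0491% and 0.0264% of all FPKM for C, 0.672% and 0.909% for N and 0.693% and 1.05% for NP.

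Ratios among the 6 genes show how far they moved as a block. The ratio of *Nppa* to *Myl7* was 2.32 and 2.22 for N and 2.66 and 2.47 for NP, but 201 and 23.5 in the C libraries. The ratio of *Mybphl* to *Myl7* was between 0.0579 and 0.0943 in all 6 libraries, although *Myl7* itself varied from 1.51 to 1319 FPKM. *Myl4* had 0.638 to 0.780 times the level of *Myl7* in the N and NP libraries, but 1.42 and 1.001 times in the C libraries. For *Bmp10* the ratio was 0 and 0.0124 in the C libraries, 0.0216 in the first N library and between 0.05004 and 0.0563 in the other N library and both NP libraries. For *Sln* it was 0 and 0.0670 in the C libraries and between 0.292 and 0.393 in the others. Of these ratios to *Myl7*, that of *Mybphl* had the narrowest range over the 6 libraries, although it rests on about 4 and 9 reads of *Mybphl* in the C libraries.

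In the N and NP groups the libraries numbered 2 held more of these RNAs than those numbered 1. All 6 genes were higher in the second than in the first library of both groups, which held for 33.6% of all genes tested. Nothing is read from this count either, since the 6 were chosen as genes that vary between libraries. The second library exceeded the first by 1.27-fold for *Mybphl* to 3.22-fold for *Bmp10* in the N group, and by 1.52-fold for *Bmp10* to 1.86-fold for *Myl4* in the NP group. Among libraries numbered 1, the NP level was 0.911 times the N level for *Myl7*, 0.956 for *Mybphl*, 1.01 for *Myl4*, 1.05 for *Nppa*, 1.15 for *Sln* and 2.38 for *Bmp10*. Among those numbered 2 it was between 1.11 times for *Myl7* and 1.26 times for *Myl4*. In the C group *Nppa* was 1.93-fold higher in the first library, whereas the other 5 genes were higher in the second.

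The atrial light chains can be set against their ventricular counterparts in the same library. *Myl7* made up 0.00626% and 0.0254% of the summed FPKM of *Myl7* and *Myl2* in the C libraries. This share was 6.74% and 6.54% for N and 6.05% and 6.70% for NP. *Myl4* made up 0.0244% and 0.0746% of the sum of *Myl4* and *Myl3* for C, 8.91% and 12.4% for N and 8.28% and 12.7% for NP. The shares of the first pair lay within a narrow range over the 4 libraries on the NASH diet, while those of the second pair were higher in the libraries numbered 2.

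**Figure D2:**
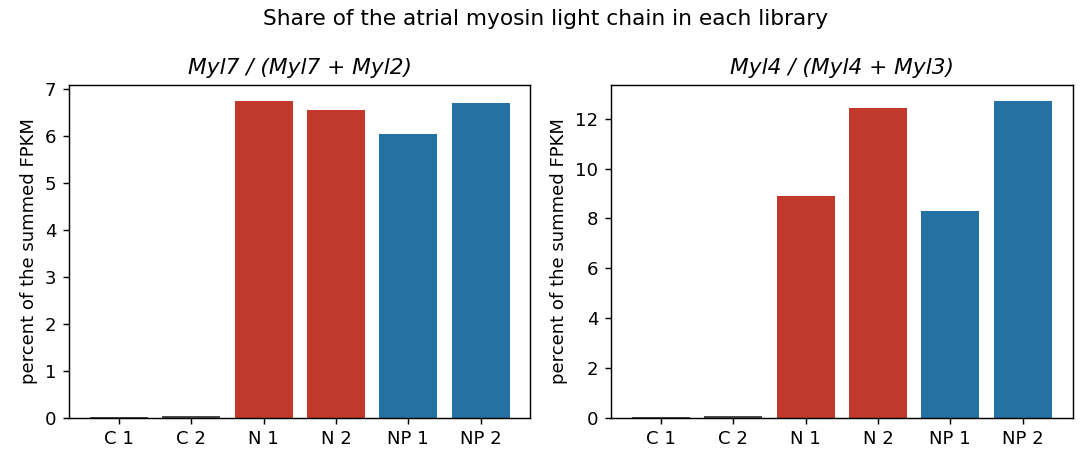
Share of *Myl7* in the summed FPKM of *Myl7* and *Myl2* (left) and of *Myl4* in that of *Myl4* and *Myl3* (right), in percent, with 1 bar for each library. The bars of the C libraries are under 0.1%, and those of the N and NP libraries are between 6.05% and 12.7%.

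*Myl2* itself had 24053 and 26366 FPKM in the C libraries, 11855 and 17042 FPKM in the N libraries, and 12145 and 18366 FPKM in the NP libraries. Its difference from the C group was -0.83 for N and -0.75 for NP, which did not pass the test (limma adjusted *P* = 0.228 and 0.557). *Myl3* had 8780 and 8983 FPKM in the C libraries and 5591 and 5740 FPKM in the N libraries, a difference of -0.65 (limma adjusted *P* = 0.0803), with -0.43 for NP (limma adjusted *P* = 0.507). The list of 7 ventricular genes had a median difference from C of -0.33 for N and -0.16 for NP, and 0 of its genes passed limma's test in either direction, against 1.48% higher and 0.0696% lower of all genes tested for N and 0.0387% and 0.0% for NP. At an unadjusted *P* under 0.05 in limma's test 3 were lower for N and 2 for NP, against 6.76% and 4.18% of all genes tested. *Myh7*, the slow myosin heavy chain, had a difference from C of -0.49 for N but of 0.33 for NP (limma adjusted *P* = 0.257 and 0.681), in opposite directions. The N minus C difference was -0.33 for *Hey2* and 0.16 for *Irx4*, both transcription factors of ventricular muscle. It was -0.13 for *Kcnip2*, a subunit of the transient outward potassium channel, and -0.070 for *Pln*, and these last values turned positive with the libraries scaled to the same total (0.044 and 0.11). Over 13 alternatives the N minus C difference ran from -1.09 to -0.15 for *Myl2* (the latter with quantile normalization), from -0.67 to -0.35 for *Myl3*, from -0.71 to -0.28 for *Myh7*, from -0.47 to -0.19 for *Hey2* and from 0.037 to 0.32 for *Irx4*. The NP minus C difference ran from -1.05 to -0.15 for *Myl2* and from -0.53 to -0.16 for *Myl3*. Both N libraries lay below both C libraries for 5 of the 7 genes, as for 27.0% of all genes tested, and both NP libraries did so for 2 of the 7, as for 23.0%.

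A further list of 15 genes that are enriched in atrial muscle or have known atrial roles was read beside the 6. Like all gene lists here, it was chosen with earlier results of these data known. Its counts and *P* values are therefore given as a description, and nothing is read from the counts. In the N group 3 of the 14 genes past the filter rose and 0 fell relative to C, against 1.48% and 0.0696% of all genes tested. At an unadjusted *P* under 0.05 in limma's test 9 were higher and 0 lower. The shares of all genes tested were 8.24% and 6.76%, which depend on the scaling, as given above. The median difference of the list from C was 0.93 for N and 1.11 for NP. *Dkk3*, a secreted protein of the Dickkopf family, had 0.720 and 4.12 FPKM in the C libraries, 38.0 and 44.9 FPKM in the N libraries, and 40.7 and 49.4 FPKM in the NP libraries. It rose by 3.83 in the N group (standard error 0.48, limma adjusted *P* = 0.0232), and the difference in the NP group was 3.95 (limma adjusted *P* = 0.154). *Pam*, the enzyme that amidates peptide hormones and an abundant membrane protein of atrial secretory granules, had 191 and 180.0 FPKM in the C libraries, 369 and 376 FPKM in the N libraries, and 376 and 472 FPKM in the NP libraries. It rose by 1.002 in the N group (standard error 0.14, limma adjusted *P* = 0.0297) and differed by 1.18 in the NP group (limma adjusted *P* = 0.129). *Gja5*, the gap junction protein connexin 40 of atrial muscle, conduction tissue and arterial endothelium, rose from 2.66 and 3.16 FPKM in the C libraries to 6.58 and 7.96 FPKM in the N libraries, a difference of 1.08 (standard error 0.16, limma adjusted *P* = 0.0409). In the NP libraries *Gja5* had 6.21 and 7.87 FPKM, a difference of 1.04 (limma adjusted *P* = 0.237).

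The calls of these 3 genes in the N group were sensitive to single libraries. Without the first or the second N library the limma adjusted *P* was 0.122 and 0.127 for *Dkk3*, 0.136 and 0.131 for *Pam*, and 0.108 and 0.161 for *Gja5*. Without the first or the second C library it was 0.157 and 0.268 for *Pam* and 0.256 and 0.231 for *Gja5*, while *Dkk3* passed. Without either NP library the calls of *Dkk3* (0.0654 and 0.0662) and *Gja5* (0.0587 and 0.0605) were lost as well, as they were with only the 2 groups compared (0.0666 and 0.0623). With no filter on low values the adjusted *P* was 0.0598 for *Dkk3*, 0.0579 for *Pam* and 0.0829 for *Gja5*, and *Gja5* also had 0.0592 with quantile normalization and 0.0556 scaled to the same median. Over 13 alternatives the adjusted *P* ran from 0.00699 to 0.127 for *Dkk3*, from 0.00807 to 0.268 for *Pam* and from 0.0103 to 0.256 for *Gja5*, and all differences were above 0. Against the C group, *Dkk3* passed in the NP group without the first or the second C library (0.00826 and 0.00997, over alternatives from 0.00826 to 0.618), and *Pam* scaled to the same total (0.0396, over alternatives from 0.0396 to 0.521).

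The other genes of this list did not pass the main test in the N group. The atrial kinases *Sbk3* and *Sbk2* differed from the C group by 2.42 and 1.06 in the N group (limma adjusted *P* = 0.0941 and 0.0807), and for NP the differences were 2.82 and 1.55 (limma adjusted *P* = 0.308 and 0.160). *Sbk2* passed in the N group scaled to the same total (0.0267), with only the 2 groups compared (0.0472) and without either NP library (0.0471 and 0.0480), and over 13 alternatives its limma adjusted *P* ran from 0.0217 to 0.398. The lipid transfer protein *Stard10* had differences of 1.22 and 1.35 (limma adjusted *P* = 0.129 and 0.427). *Hamp*, the iron hormone hepcidin, had a difference of 2.02 (limma adjusted *P* = 0.397), with 1.26 and 10.4 FPKM in the C libraries, 11.9 and 32.0 FPKM in the N libraries and 10.7 and 40.3 FPKM in the NP libraries, and the gap between libraries of one group was as wide as that between groups. The N minus C difference was 0.60 for *Kcnj3* and 0.31 for *Kcnj5*, the subunits of the potassium channel that acetylcholine opens in the atria. It was 0.85 for *Cacna2d2* and 0.15 for *Cacna1d*, both calcium channel subunits. Over 13 alternatives it ran from 0.85 to 3.19 for *Hamp*, from 0.30 to 0.90 for *Kcnj3*, from 0.19 to 0.48 for *Kcnj5*, from 0.68 to 1.43 for *Cacna2d2* and from -0.00166 to 0.35 for *Cacna1d*. Among transcription factors it was 0.62 for *Tbx5*, 0.47 for *Nr2f2* and -0.063 for *Nr2f1*, the last with 0.037 once the libraries were scaled to the same total. Both N libraries were above both C libraries for 12 of the 14 genes tested, as for 22.5% of all genes tested, and both NP libraries for 14, as for 19.5%.

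**Figure D3:**
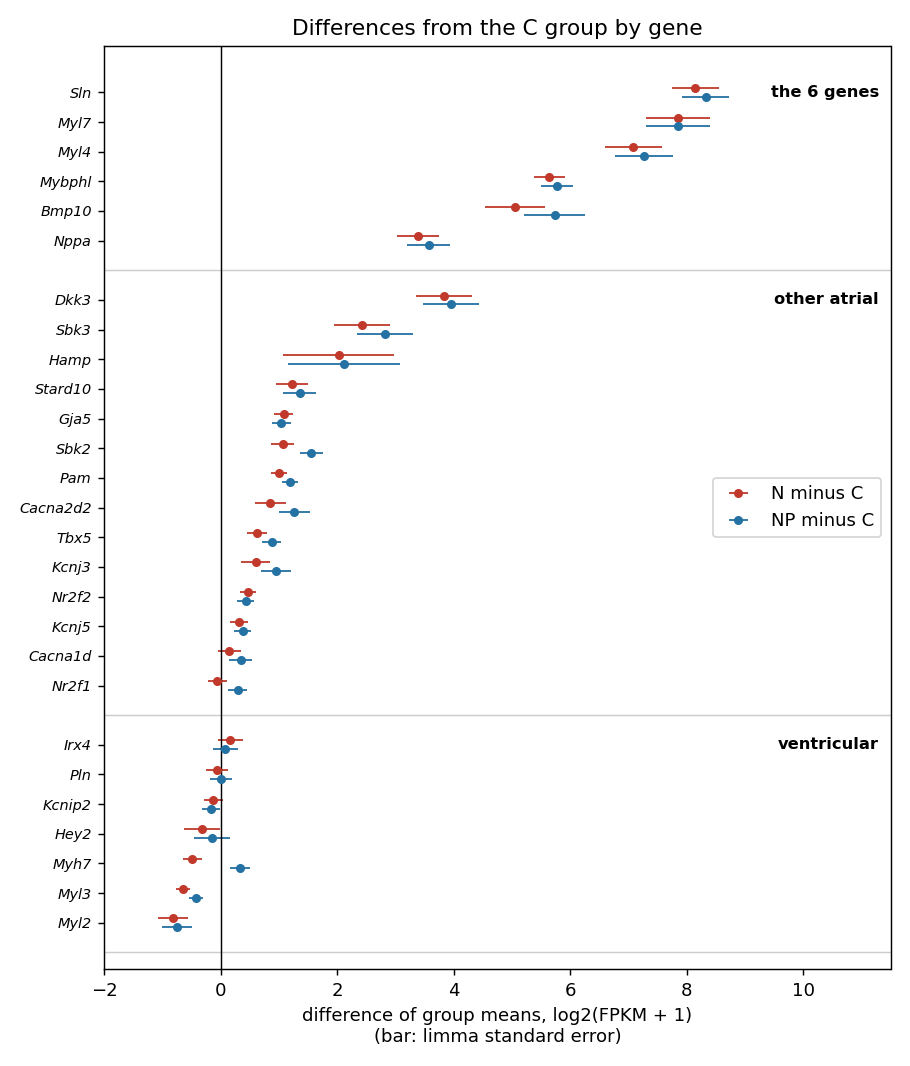
Difference of the N group (red) and of the NP group (blue) from the C group on the log2(FPKM + 1) scale for the 6 atrial chamber genes, the 14 tested genes of the other atrial list and the 7 ventricular genes, where points are differences of group means (n = 2) and bars are limma standard errors. The 6 genes lie between 3.39 and 8.33, the other atrial genes between -0.063 and 3.95, and *Myl2* and *Myl3* to the left of 0.

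Partners of the 6 genes in their pathways are given next. In limma's test 1.48% of all genes tested were higher and 0.0696% lower in the N than in the C group, and 8.24% and 6.76% at an unadjusted *P* under 0.05, so that a count of 0 is unremarkable for a list of 8 to 13 genes. Of the natriuretic peptide pathway 0 of 8 genes tested passed limma's test in any comparison, and 1 had an unadjusted *P* under 0.05 between N and C, being higher in N. *Nppb*, which encodes the related B-type peptide, had 271 and 133 FPKM in the C libraries, 108 and 166 FPKM in the N libraries, and 136 and 131 FPKM in the NP libraries. The ratio of *Nppa* to *Nppb* was 1.12 and 1.18 in the C libraries, against 18.4 and 16.0 for N and 15.3 and 24.9 for NP. *Corin*, the protease that activates the *Nppa* product, had between 58.0 and 108 FPKM over the 6 libraries. Of the BMP pathway 0 of 13 genes passed, among them *Eng*, a coreceptor of BMP10 on endothelium, with 62.2 to 90.8 FPKM. Of the calcium pump list 0 of 8 genes passed, and the pump *Atp2a2* had 4564 to 5762 FPKM. Of the chamber transcription factors 0 of 8 passed, and *Gata4*, with the highest mean over the 6 libraries, had 34.6 to 48.1 FPKM, though *Nkx2-5* (32.3 to 46.1 FPKM) lay above it in both C libraries and the second NP library. At an unadjusted *P* under 0.05, 1 gene of the BMP list and 2 of the calcium pump list were higher in the N than in the C group, 1 of the latter was lower, and 0 chamber factors differed. The median N minus C differences of the 4 lists were -0.11, 0.18, -0.012 and 0.19, in the order given.

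Windows before the start sites are shown for 4 of the genes, since the genes moved together and their sequence was not used to choose them. The RefSeq table used here (GRCm38.p6, the assembly of mm10) holds an entry for 5 of the 6 genes. That table has none for *Sln*, whose position is given above. Each window is the 250 bases before the annotated start, 5′ to 3′ on the gene's strand. Capitals mark matches on either strand to AGATAA (bound by GATA factors), AGGTGT (a T-box core site), AGGTCA (a nuclear receptor core site), the CArG box or the MEF2 motif. The windows are at chr4:148000472-148000721 (plus strand) for *Nppa*, chr6:87428744-87428993 (plus strand) for *Bmp10*, chr3:108364661-108364910 (plus strand) for *Mybphl* and chr11:5898783-5899032 (minus strand) for *Myl7*, and none overlaps an exon in GENCODE M21.
Nppa: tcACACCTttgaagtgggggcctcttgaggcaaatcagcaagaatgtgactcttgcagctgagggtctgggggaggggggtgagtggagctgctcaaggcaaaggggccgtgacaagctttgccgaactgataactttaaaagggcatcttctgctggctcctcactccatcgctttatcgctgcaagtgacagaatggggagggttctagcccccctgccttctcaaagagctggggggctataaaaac
Bmp10: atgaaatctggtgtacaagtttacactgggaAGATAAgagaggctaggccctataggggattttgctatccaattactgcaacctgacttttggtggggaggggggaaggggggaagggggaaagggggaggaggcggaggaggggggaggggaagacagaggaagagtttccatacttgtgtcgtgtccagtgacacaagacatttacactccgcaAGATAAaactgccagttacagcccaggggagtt
Mybphl: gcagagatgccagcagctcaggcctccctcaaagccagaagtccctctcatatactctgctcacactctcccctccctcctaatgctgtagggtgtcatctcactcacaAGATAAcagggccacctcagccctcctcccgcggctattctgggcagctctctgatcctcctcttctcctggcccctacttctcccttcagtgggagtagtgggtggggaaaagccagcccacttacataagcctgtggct
Myl7: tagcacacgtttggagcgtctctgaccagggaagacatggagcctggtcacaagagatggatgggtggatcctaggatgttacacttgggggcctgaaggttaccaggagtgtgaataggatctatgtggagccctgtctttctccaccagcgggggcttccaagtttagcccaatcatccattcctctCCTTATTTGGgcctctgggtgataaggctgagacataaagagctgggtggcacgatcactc

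*Bmp10* had 2 matches to AGATAA, which end 213 and 27 bases before the start, and *Mybphl* had 1, which ends 135 bases before it. *Nppa* had 1 match to AGGTGT, read on the other strand, 242 bases before the start, and *Myl7* had 1 CArG box, the motif of serum response factor, 51 bases before the start. The window of *Myl4*, at chr11:104550413-104550662 (plus strand), lies before a start inside the span given above for the gene, not at its first base, and held 0 matches. Of 32851 windows of the same length in the table, 9.99% held AGATAA, 11.8% AGGTGT, 14.0% AGGTCA, 1.47% a CArG box and 2.92% a MEF2 motif. No motif among those searched was thus found in all 5 windows, though *Bmp10* and *Mybphl* both held AGATAA. Only these exact letters were searched for GATA factors. The related run TGATAA, which the windows of *Nppa* and *Myl7* hold, was not searched and is not marked, so their lack of a match does not mean that they lack a GATA site. A match is only a run of letters, not a site shown to be bound.

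By correlation over the 6 libraries, the genes most alike to the mean of the 6 atrial chamber genes were sought among 583 other genes whose mean FPKM reached 5, with a log2 range of at least 1. The 10 with the highest Pearson r were *Igfbp5* (0.992), *Scd2* (0.989), *Gja5* (0.988), *Gpx3* (0.987), *Mlana* (0.987), *Tbc1d1* (0.987), *Ifltd1* (0.986), *Pam* (0.985), *Gas1* (0.977) and *Dkk3* (0.975). The libraries share the same groups, so that r mainly tells C from the rest, and no *P* is given. *Gja5*, *Pam* and *Dkk3* are also in the other atrial list. *Igfbp5*, a binding protein for insulin-like growth factors, had 27.3 and 28.1 FPKM in the C libraries, 56.5 and 54.0 FPKM in the N libraries, and 57.5 and 60.2 FPKM in the NP libraries. *Gpx3*, the secreted glutathione peroxidase, had 158 and 134 FPKM in the C libraries, 357 and 352 FPKM in the N libraries, and 355 and 391 FPKM in the NP libraries. The desaturase gene *Scd2* had 4.08 and 4.28 FPKM in the C libraries and between 11.4 and 15.2 FPKM in the others. *Mlana*, best known from pigment cells, was listed at 0 in both C libraries and had 9.61 and 12.7 FPKM in the N libraries and 10.8 and 8.34 FPKM in the NP libraries. *Igfbp5* and *Gpx3* thus varied little between the libraries of a group, while *Ifltd1* and *Dkk3* were higher in the second C library than in the first, by 3.03-fold and 5.73-fold.

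**Figure D4:**
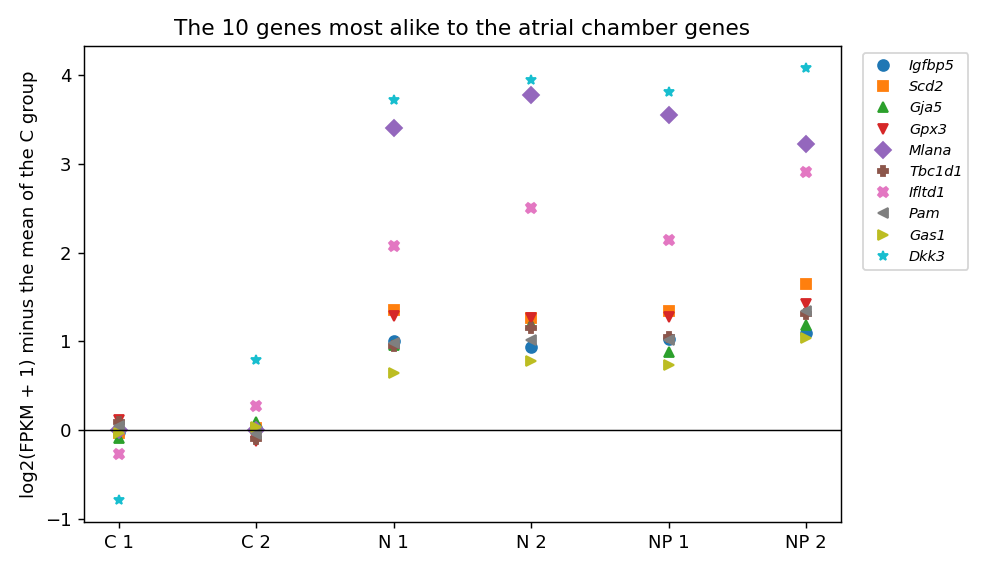
log2(FPKM + 1) minus the mean of the C group in each library for the 10 genes most alike to the 6 atrial chamber genes, where each symbol is a gene. *Dkk3*, *Mlana* and *Ifltd1* lie highest in the N and NP libraries, and the 2 C libraries of *Dkk3* stand furthest apart.

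Marker lists of other cell types also varied between the groups, and their part in the levels of the 6 genes was not tested. A list is said to be led by the gene with the highest mean over the 6 libraries. The summed FPKM of 7 mesothelial genes was 10.2 and 2.19 for C, 36.3 and 23.7 for N and 25.5 and 25.9 for NP. *Upk3b* had the highest mean of them over the 6 libraries but 0.251 FPKM in the second C library, where *Wt1* had 0.891 FPKM. *Upk1b* and *Krt19* were listed at 0 in the second C library, and of the 7 only *Lrrn4* passed the test in the N group, with a difference of 1.59 (limma adjusted *P* = 0.0424, and from 0.0292 to 0.222 over 13 alternatives, the highest without the second C library). This call was lost in 10 of the 13, among them each with 1 library left out, a pseudocount of 0.1 (0.107, where the difference was 3.43), quantile normalization (0.0619), no filter on low values (0.0803) and only the 2 groups compared (0.0951). *Lrrn4* rests on about 44 and 1 reads in the C libraries and on about 62 to 100 in the others. It passed the filter only through the N and NP libraries. The same holds for *Upk1b* and *Krt19*, which had about 32 and 29 reads in the first C library. Nothing is therefore read from the counts of this list. At an unadjusted *P* under 0.05 in limma's test 6 of the 7 mesothelial genes were higher than in the C group, both in the N and in the NP group. This compares with 8.24% and 3.87% of all genes tested, and the adjusted *P* was under 0.05 for 1.48% and 0.0387%. The C libraries were the lowest 2 in comparison with N for 6 of the 7, as for 22.5% of all genes tested, and in comparison with NP for 7, as for 19.5%. The adipocyte list summed to 34.2 and 39.3 for C, 223 and 132 for N and 34.8 and 112 for NP, with 0 of 7 genes tested past limma's threshold between the N and C groups and 6 higher at an unadjusted *P* under 0.05 (1.48% and 8.24% of all genes tested), and *Ucp1* and *Lep* listed at 0 in the first C and the first NP library, and *Plin1* in the first C library. *Ucp1* and *Plin1* rest on about 2 and 20 reads in the second C library and passed the filter only through libraries of the N and NP groups. Nothing is therefore read from the count of 6. In both C libraries and the first NP library *Cidea* was the most abundant of this list (32.1, 29.9 and 18.8 FPKM), and in the others *Cfd* (142, 53.5 and 44.3 FPKM). *Cfd* had 1.17 and 5.53 FPKM in the C libraries and 11.2 FPKM in the first NP library, so that similar sums differ in their make-up. The sinoatrial node list, led by *Tbx3*, summed to 6.46 and 6.37 for C, 9.36 and 8.97 for N and 9.02 and 11.8 for NP, with 0 of 4 genes tested past limma's threshold in any comparison, 0 at an unadjusted *P* under 0.05 between N and C but 2 higher in NP than in C, and *Isl1* listed at 0 in both C libraries and the first NP library. *Shox2* of the node list, with about 19 and 17 reads in the C libraries, passed the filter only through the N and NP libraries. Cardiac ganglion genes, led by *Dbh*, summed to between 1.39 and 3.95 in all libraries, with 0 of 2 genes tested past limma's threshold. At an unadjusted *P* under 0.05 in limma's test 1 was higher in the N than in the C group, as were 8.24% of all genes tested. Of the 2, *Prph*, with about 2 and 3 reads in the C libraries, passed the filter only through the N and NP libraries. Without *Dbh* the sum was 0.319 and 0.351 for C, 1.16 and 2.12 for N and 0.164 and 1.69 for NP, with *Chat*, *Th* and *Chrna3* listed at 0 in both C libraries and the first NP library.

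Immune cell markers were read as well. The macrophage list, led by *Lyz2*, summed to 214 and 204 for C, 339 and 321 for N and 152 and 137 for NP. Comparing the NP with the N group, 3 of its 6 genes fell, against 1.39% of all genes tested, namely *Adgre1* by 1.25, *Cd68* by 1.37 and *Lyz2* by 1.23 (limma adjusted *P* = 0.0129, 0.0499 and 0.00519), and *Adgre1*, 1 of the 6, rose by 0.96 from the C to the N group (limma adjusted *P* = 0.0304). The lymphocyte list summed to 1.07 and 0.954 for C, 9.91 and 8.46 for N and 1.51 and 1.28 for NP. Of its 2 genes tested, *Nkg7* rose by 1.97 from the C to the N group and fell by 2.03 from the N to the NP group (limma adjusted *P* = 0.00515 and 0.00465). It rests on about 21 and 20 reads in the N libraries and at most about 3 in any other, and passed the filter only through the N group. The calls of *Adgre1* and *Cd68* were lost when any 1 library was left out and with only the 2 groups compared (0.0510 and 0.0833 for the rise and the fall of *Adgre1*, 0.184 for *Cd68*). The rise of *Adgre1* was also lost with no filter on low values (0.0622). The fall of *Cd68* was lost in 12 of 13 alternatives and kept only scaled to the same total. Over 13 alternatives limma's adjusted *P* ran from 0.0186 to 0.269 for the rise of *Adgre1*, from 0.00893 to 0.0856 for its fall and from 0.0424 to 0.220 for the fall of *Cd68*. That of *Lyz2* was lost without the second NP library (0.0561, over alternatives from 0.00326 to 0.0561), and those of *Nkg7* with a pseudocount of 0.1 (0.0652 and 0.0513, with lowest values over alternatives of 0.00428 and 0.00470), where the differences were 3.95 and -4.37.

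Further lists cover shared heart muscle and other tissues. Shared sarcomere genes, led by *Tpm1*, summed to between 43089 and 51635 FPKM, the vascular smooth muscle list, led by *Acta2*, to between 87.4 and 142, the fibroblast list, led by *Dcn*, to between 500.2 and 711, and the endothelial list, led by *Pecam1*, to between 204 and 302. In these lists, and in the hypertrophy list led by *Ankrd1*, 0 genes passed limma's test in any comparison. Between the N and C groups, 3 sarcomere genes and 2 of the hypertrophy list were lower, and 1 gene each of the smooth muscle, fibroblast and hypertrophy lists was higher, at an unadjusted *P* under 0.05, as were 6.76% (lower) and 8.24% (higher) of all genes tested. The erythroid list, led by *Hba-a1*, summed to 30.7 in the first C library and to between 147 and 199.8 in the others, with 0 genes past limma's threshold and 0 at an unadjusted *P* under 0.05 in any comparison. The skeletal muscle list, led by *Myl1*, summed to 46.6 and 44.9 for C, 63.0 and 107 for N and 52.2 and 134 for NP. Both C libraries were thus the lowest and the libraries numbered 2 on the NASH diet the highest. This order rests on *Myl1*. Without it the sum was 4.26 and 6.34 for C, 5.45 and 6.14 for N and 5.07 and 6.23 for NP, with the second C library the highest. The part of this list in the levels of the 6 genes was not tested. Of its genes, *Myh4* was listed at 0 in every library, and 0 of 4 tested passed limma's test, with 1 lower in the NP than in the C group and 1 lower than in the N group at an unadjusted *P* under 0.05. Lung and thymus were near absent. The lung list, led by *Napsa*, summed to at most 1.79 with *Sftpc* listed at 0 in every library, and the thymus list, led by *Cd8b1*, to at most 0.575 with *Rag1* and *Rag2* listed at 0 in every library.

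**Figure D5:**
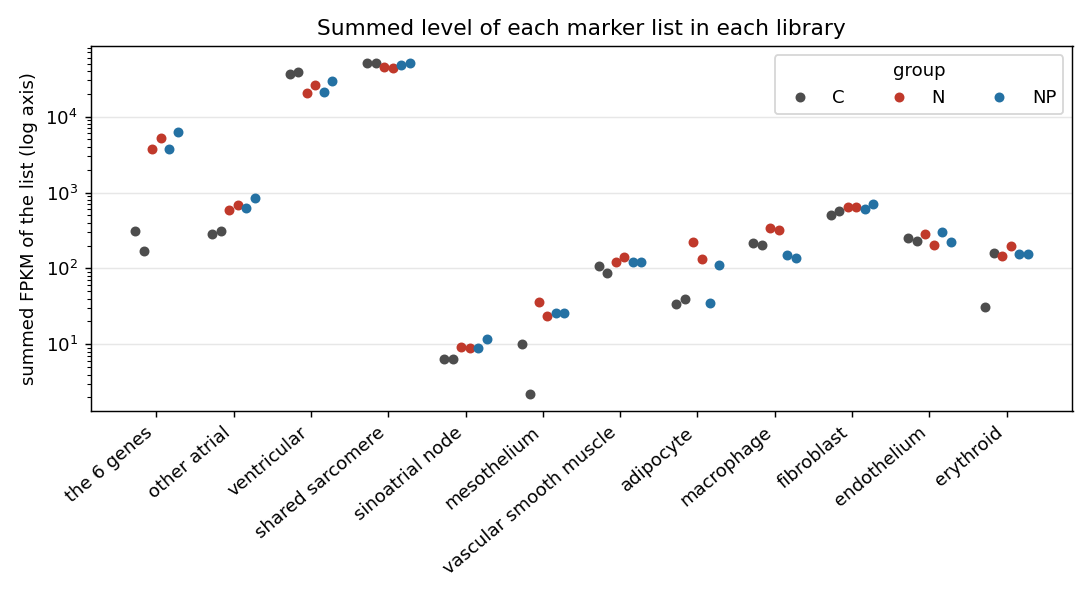
Summed FPKM (log axis) of the 6 atrial chamber genes, the other atrial list, the ventricular list and 9 lists of shared heart muscle and other cell types, where each point is a library coloured by group. The 6 genes separate the C libraries (172 and 307) from the N and NP libraries (3719.9 to 6279), and the mesothelial list does so too (2.19 and 10.2 against 23.7 to 36.3). The other atrial, sinoatrial node, smooth muscle and fibroblast lists are also lower in both C libraries than in any other and the ventricular list is higher, while in the remaining lists the C libraries do not lie to one side of all others.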

How the data were processed

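Heart RNA was sequenced from stranded mRNA libraries on an Illumina HiSeq instrument. By the submitters' processing notes, the authors mapped reads to mm10 with TopHat2 2.0.13, Bowtie2 2.2.3 and SAMtools 0.1.19, and the deposited values are FPKM from Cufflinks 2.2.1, which were not rescaled. Libraries were grouped by the sample labels. Differences were computed on log2(FPKM + 1) and 12923 genes whose mean FPKM reached 0.5 were tested with limma 3.58.1 in R 4.3.3, with 3 groups in 1 model, a trended prior and Benjamini-Hochberg adjustment over all genes at a threshold of 0.05. Sums, ratios, motif searches and plots were made in Python 3.11.15 (pandas 2.3.3, numpy 2.4.6, matplotlib 3.10.9). Depth was estimated from 4245 genes with 1 transcript in GENCODE M21, with 200 bases taken off the length. Between 73.0% and 79.2% of values up to 5 reads lay within 0.1 of a whole number. Both methods were also tried on simulated data, but the outcome is not given here and nothing is read from it. The 6 genes and all lists were chosen with earlier results of these data known. Genes named are the 6 genes, every tested gene of the other atrial and ventricular lists, of other lists the genes past the test and the one that leads by its mean over the 6 libraries, and the 10 most alike genes. Others, such as *Myh6*, *Actc1*, *Corin*, *Acta1* and marker genes listed at 0, were chosen after their values were seen.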

Additional observations from a re-analysis of the deposited data

How the results depend on the processing

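Each difference of a single gene was recomputed under 13 alternatives. Of 897 values for 69 genes and comparisons, 767 kept their direction and side of the threshold or moved by less than the spread between replicates, 44 moved further, 61 lost a call, 16 gained one and 9 changed direction. Lost and gained calls and changes of direction were not counted for the 6 genes, which were chosen on their values. They were also not counted for the most alike genes, likewise chosen on their values. *Gja5*, *Pam* and *Dkk3* are the exception, as they are also in the other atrial list, and theirs were counted. Comparisons whose values are not given were left out of these counts as well. Between the N or NP group and the C group, all 6 atrial chamber genes stayed above 0 in all 13 alternatives, from 2.92 for *Nppa* to 10.68 for *Sln*, a direction that their choice fixes. Where a library was left out, the lone library of its group was assumed to vary like the other groups, and causes were not tested.

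The reversed N minus C differences were those of *Nr2f1* (0.037 scaled to the same total, and -0.19 to 0.063 with 1 library left out), *Cacna1d* (-0.00166 without the second N library, and up to 0.29 with another left out), *Pln* (0.26 with quantile normalization, 0.11 scaled to the same total, and -0.23 to 0.092 with 1 library left out) and *Kcnip2* (0.044 scaled to the same total). Scaling to the same total moved the median of all genes to 0.12 in both comparisons with the C group.

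Genes called between the N and C groups were 309 scaled to the same total and 49 to 183 with 1 library left out. Between the NP and C groups they were 12 with a pseudocount of 0.1, 10 scaled to the same total, 0 with no filter on low values (688 higher and 665 lower at an unadjusted *P* under 0.05 in limma's test) and 5 to 101 with 1 library left out. Between the NP and N groups they were 78 with only the 2 groups compared and 67 to 108 with 1 library left out. With the replicate number as a block, limma called 328 genes (N minus C), 20 (NP minus C) and 200 (NP minus N), with 7, 4 and 0 genes of the other atrial list and 1, 0 and 0 of the ventricular list among them. The difference between the libraries numbered 2 and 1 correlated across 12923 genes, which are not independent replicates, with r = 0.458 between the N and NP groups, 0.0471 between the C and N groups and 0.124 between the C and NP groups, and the labels do not say that a number marks a shared animal or batch. The files of the N and NP libraries numbered 1 and of those numbered 2 were named in different ways, and only the latter names carry the 3 weeks.

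The median difference of the 6 genes was 7.72 (N minus C) and 7.94 (NP minus C) with a pseudocount of 0.1, and -0.24 to 0.56 (NP minus N) with 1 library left out. That of the other atrial list was 0.92 to 1.26 (NP minus C) and 0.012 to 0.38 (NP minus N) with 1 library left out. That of the ventricular list was -0.15 with quantile normalization, -0.19 scaled to the same total and -0.47 to -0.20 with 1 library left out (N minus C), -0.058, -0.016 and -0.33 to -0.017 likewise (NP minus C), and -0.00114 to 0.23 with 1 library left out (NP minus N). The C libraries hold few reads of *Sln*, *Bmp10* and *Mybphl*, so that the size of these differences depends on the pseudocount.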

Other observations

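*Mlana* was the only gene outside the 6 atrial chamber genes that passed limma's test between the NP and C groups, with a difference of 3.39 (adjusted *P* = 0.00738, and from 0.00124 to 0.0642 over 13 alternatives, past 0.05 without the second C library and with no filter on low values), and of 6.58 with a pseudocount of 0.1. *Mlana* was listed at 0 in both C libraries, so that it passed the filter only through the N and NP libraries. It was chosen for a closer look after its values were seen, together with 4 other pigment cell genes. *Dct*, a pigment enzyme, had 2.83 and 1.54 FPKM in the C libraries, 2.53 and 3.84 FPKM in the N libraries, and 4.12 and 3.08 FPKM in the NP libraries, so that the N group overlapped both others, while both NP libraries lay above both C libraries. *Pmel*, *Tyrp1* and *Tyr* had at most 0.314 FPKM in any library. The levels of *Mlana* in the N and NP libraries correspond to about 50 to 78 reads.

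The C libraries were not alike in these genes. The first had more *Nppa*, *Nppb* and *Acta1* (303, 271 and 245 FPKM against 158, 133 and 91.9 FPKM) and more of the mesothelial gene *Upk3b* (3.11 against 0.251 FPKM). The second had more *Myl7*, *Dkk3*, *Sbk3* and *Hamp* (6.70, 4.12, 6.11 and 10.4 FPKM against 1.51, 0.720, 1.85 and 1.26 FPKM) and more *Hba-a1* (158 against 30.0 FPKM).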
